A study of Mus musculus with 14 samples.

Results

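Chemokine receptors steer regulatory T cells (Tregs), the suppressive CD4 T cells defined by Foxp3, into lymphoid and peripheral tissues. The 9 receptor genes Ccr2, Ccr4, Ccr6, Ccr7, Ccr8, Ccr9, Cxcr3, Cxcr4 and Cxcr5 were taken by gene symbol from a table of 22203 transcript clusters, where a transcript cluster is the group of probes that reads 1 gene. Each receptor had 1 transcript cluster. Of these 9 receptors, 6 (Ccr2, Ccr4, Ccr6, Ccr8, Cxcr3 and Cxcr5) were higher in effector than in central Tregs, in controls as in the arrays labelled KO. Only Ccr2 had values at array background, the median of the background control probes, on 4 of the 7 cTreg arrays. At the 90th percentile of those probes 40 of the 126 values lay at background, among them all cTreg values of Ccr2, Ccr4 and Ccr8. By genotype label none of the 9 passed the threshold once P values were adjusted over all transcript clusters.

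The RNA came from Tregs of mixed bone marrow chimeras on Clariom S mouse arrays, 14 in all. CD45.2+ marrow of Foxp3Cre Atg14+/fl donors (control, labelled heterozygous) or of Foxp3Cre Atg14fl/fl donors (labelled KO) was combined in equal parts with CD45.1+ wild-type marrow and given to irradiated Rag1-/- hosts, which make no T or B cells of their own. The Cre recombinase is expressed with Foxp3, so the flanked alleles are cut in Tregs of both donor genotypes, on 1 allele in controls. Atg14 encodes a subunit of a complex of the lipid kinase Vps34 that acts in autophagy. The Foxp3-YFP+ cells were sorted into central Tregs (cTregs, CD44 low) and effector Tregs (eTregs, CD44 high), which gave 4 arrays of control cTregs, 4 of control eTregs, 3 of cTregs labelled KO and 3 of eTregs labelled KO. The series description names spleen with peripheral lymph nodes as the source, and the methods of the study name the spleen. Mice of both sexes and of C57BL/6 strain served as donors, T cells were removed from the marrow, and some Atg14fl/fl donors of the study carried an Atg14+/- or Atg14-/- genotype, which is not given array by array. Donor ages and the sex of each donor are not given for these arrays. A legend of the study gives as many chimeras per genotype as there were arrays per subset, so both subsets appear to come from the same chimeras, but the labels do not tie array numbers to chimeras. The arrays were therefore compared without pairs, and P values measure the spread between arrays, which may be partly technical. Arrays are named by label and number, as in KO eTreg 1.

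The Atg14 signal did not separate the genotypes in the direction of the labels. In log2 units, control eTregs had a mean signal of 8.84 ± 0.16 (SD, n = 4) and eTregs labelled KO of 9.16 ± 0.16 (n = 3), and it was 8.94 ± 0.26 (n = 4) in control cTregs and 9.29 ± 0.042 (n = 3) in cTregs labelled KO (limma, adjusted P = 0.550 in eTregs and 1 in cTregs). On every array the Atg14 signal was at or below the 90th percentile of the background control probe sets. The position of its probes relative to the flanked exons is not known here either, so the genotype is given as labelled throughout. Apart from these arrays, the study reports a check of Atg14 deletion by quantitative PCR in sorted Tregs of Foxp3Cre Atg14fl/fl mice. The Cd44 signal was 10.60 on KO eTreg 1, against 11.52 and 11.49 on KO eTreg 2 and 3, and all eTreg arrays were above all cTreg arrays. KO eTreg 2 and 3 stood apart by their macrophage genes: C1qa, a complement gene of macrophages, was 12.10 and 12.18 there, 8.84 on KO eTreg 1 and 9.66 to 10.32 on the control eTreg arrays. Background control probes had medians between 6.00 and 6.30 on the log2 scale. A lower signal can come from fewer cells of a type or from less RNA per cell, and these arrays cannot tell them apart.

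Chemokine receptors are G protein-coupled receptors with a shared mode of action. A chemokine, a small secreted protein held on tissue surfaces, binds the receptor, which activates an inhibitory G protein and turns the cell towards the source. Regulator of G protein signalling proteins, receptor kinases and arrestins end the signal. In Tregs, Ccr7 is known for entry into the T cell zones of lymphoid organs, whereas other receptors of the family guide cells into follicles, inflamed tissue, skin and gut.

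In control arrays, eTregs exceeded cTregs in 6 of the 9 receptors (adjusted threshold, a log2 change of 0.5 or more with an adjusted P below 0.05), and no receptor fell. Over all transcript clusters 2.14% rose and 0.919% fell at the same threshold. In the arrays labelled KO the count was 6 of 9 higher and 0 lower, against 2.02% and 0.329% of all transcript clusters. These were the same 6 receptors. With KO eTreg 2 and 3 left out, which leaves 1 array of eTregs labelled KO, 2 of them passed, Ccr2 (2.66, limma adjusted P = 0.00495) and Ccr4 (2.69, 0.00185). The control eTreg arrays did not overlap the control cTreg arrays for 8 of the 9 receptors, the 6 with higher and Ccr7 and Ccr9 with lower eTreg values (11.1% of all transcript clusters), and for 6 of the 9 in the arrays labelled KO (14%). The median change over the 9 receptors was 1.5 in controls and 1.85 in arrays labelled KO on the log2 scale, beside 0.00264 and -0.04 over all transcript clusters.

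**Figure D1:**
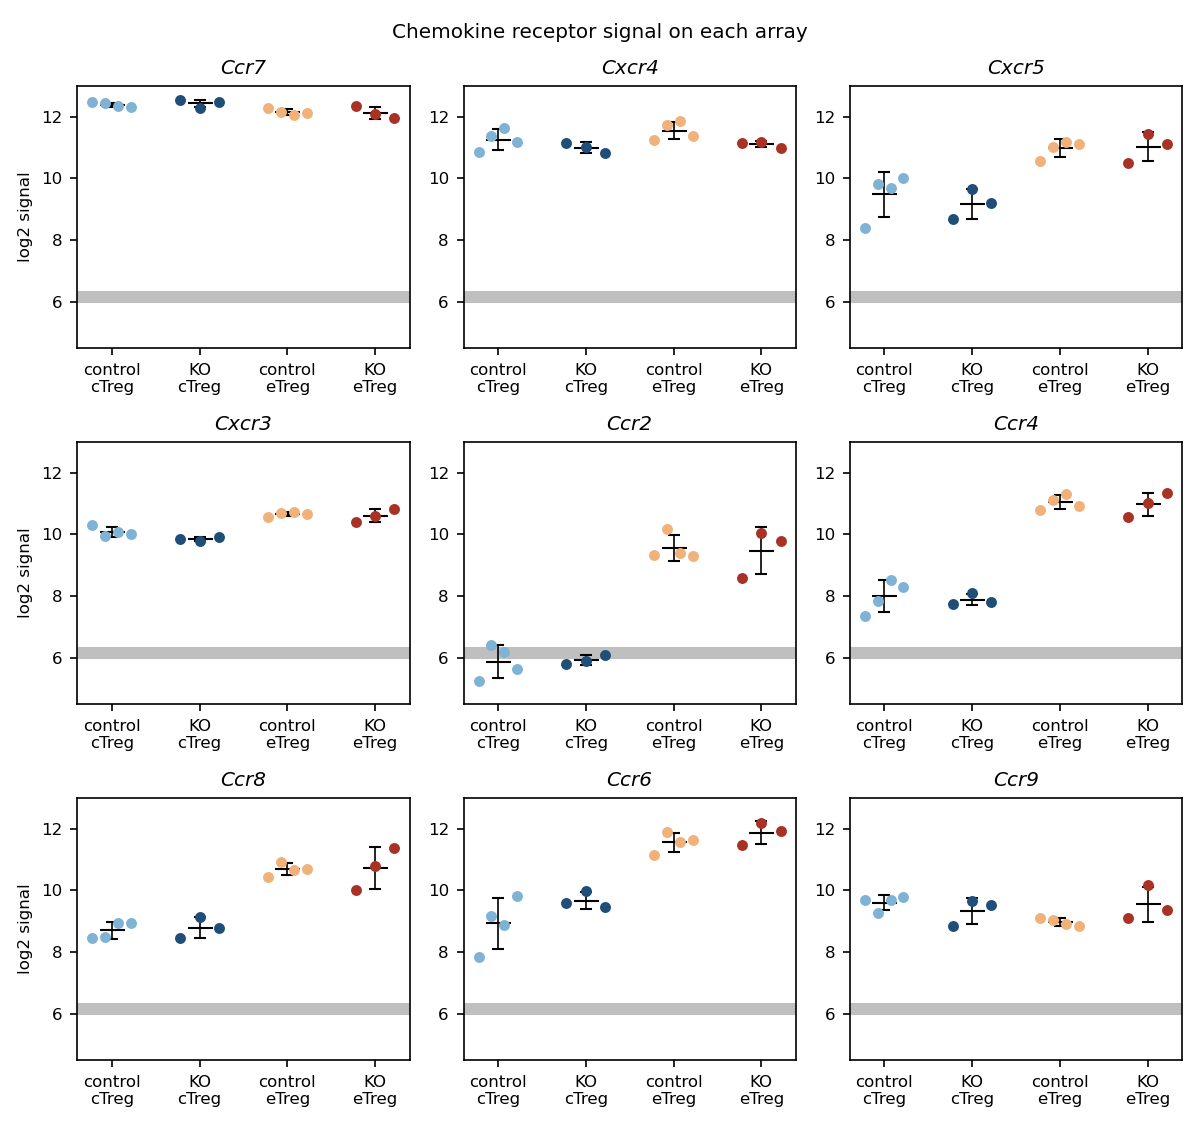
Log2 signal of the 9 chemokine receptors on each array, by group. Each point is an array, black bars are the group mean and SD, and the grey band spans the medians of the background control probes on the 14 arrays. Ccr2 lies in or near the band in both cTreg groups, and the other 8 receptors lie above it on all arrays.

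Ccr2, Ccr4 and Ccr8 had eTreg arrays well apart from the cTreg arrays and share a chromosome, as do Ccr9 and Cxcr5, by the chromosome code in the identifiers (chromosome 9). Ccr2 binds Ccl2 and is the receptor by which monocytes and some T cells enter inflamed tissue. Ccr4 binds Ccl17 and Ccl22, which are made by dendritic cells, and is linked to homing to skin. Ccr8 binds Ccl1 and, in mice, Ccl8, and is known as a marker of Tregs in skin and tumours. The 150 bases before the start of these receptors are shown because these genes rose most among those with a single start in the table. They are from RefSeq (GRCm38.p6), on the strand of the gene, 5′ to 3′, with capitals for matches to a searched motif. The coordinates are chr9:124102033-124102182 on the plus strand for Ccr2, chr9:114496545-114496694 on the minus strand for Ccr4 and chr9:120091983-120092132 on the plus strand for Ccr8.
Ccr2: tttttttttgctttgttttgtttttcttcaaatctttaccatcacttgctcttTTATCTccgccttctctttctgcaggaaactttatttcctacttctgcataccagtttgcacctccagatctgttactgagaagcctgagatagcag
Ccr4: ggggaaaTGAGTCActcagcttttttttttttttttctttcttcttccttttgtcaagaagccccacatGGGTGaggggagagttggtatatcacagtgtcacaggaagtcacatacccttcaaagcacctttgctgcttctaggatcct
Ccr8: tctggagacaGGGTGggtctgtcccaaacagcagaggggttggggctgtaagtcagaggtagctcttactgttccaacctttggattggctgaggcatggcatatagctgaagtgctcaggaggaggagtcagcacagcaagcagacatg

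On both strands 6 motifs were searched. That of AP-1 was TGANTCA, that of GATA factors AGATAA, that of forkhead factors GTAAACA, that of ROR factors AGGTCA, that of T-box factors GGTGTGA and that of KLF factors CACCC. Matches in the printed sequences did not overlap each other. Ccr4 held an AP-1 match, present in 4.24% of the 32851 promoter stretches of the same length, and a KLF match, present in 37.4%. Ccr8 held a KLF match. Ccr2 held a GATA match, a motif present in 5.65%. The table held 7 of the 9 receptors, without Ccr7 and Cxcr5. Among those not printed, Ccr6 has 2 starts, with an ROR match before the first (8.58% of all) and a GATA match before the second, and Ccr9 held a KLF match. Forkhead and T-box letters, in 1.80% and 1.92% of all promoters, were in none of these windows.

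Ccr2 had the widest difference between subsets of the 9 receptors in both genotypes. Its log2 signal was 5.26, 6.43, 6.17 and 5.63 on the control cTreg arrays and 9.33, 10.17, 9.40 and 9.29 on the control eTreg arrays. The arrays labelled KO had 5.78, 5.91 and 6.10 in cTregs and 8.59, 10.04 and 9.80 in eTregs. The subsets were far apart, with no overlap. At or below the background median of their own array were 2 of 4 control cTreg values and 2 of 3 values of cTregs labelled KO. The change was 3.68 ± 0.30 (SE, log2 scale, 12.8-fold, limma adjusted P = 3.95e-06) in controls and 3.55 ± 0.34 (11.7-fold) in arrays labelled KO. With values below the array's background median set to that median, the folds were 10.1 and 9.55. The background probe sets spread widely, with a 90th percentile of 9.11 to 9.91, and above that percentile were 2 of 4 control eTreg and 2 of 3 KO eTreg arrays.

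Ccr2 is also a monocyte gene, so macrophage genes were set beside it. The summed signal of a list of 20 monocyte and macrophage genes (log2) was 12.80 to 12.89 in control cTregs, 12.91 to 13.11 in cTregs labelled KO, 13.50 to 13.81 in control eTregs and 13.22 to 15.23 in eTregs labelled KO. The eTreg groups were thus higher in this sum too, and the median change over the 20 genes was 0.71 in controls and 1.51 in arrays labelled KO. In controls, 2 of the 20 rose and 1 fell at the adjusted threshold, and 8 rose in arrays labelled KO. The gene that fell was Ly6c2, a monocyte gene, with means of 10.58 in control cTregs and 9.82 in control eTregs. Under the KO label its means were 10.85 and 10.27. Itgam had 7.85 and 7.80 in controls and 7.82 and 8.42 under the KO label. On KO eTreg 2 and 3, where the C1qa signal was highest of all arrays, Ccr2 (10.04 and 9.80) was not above control eTreg 2 (10.17). On KO eTreg 1 the C1qa signal (8.84) equalled that of KO cTreg 3 (8.84) at 2 decimals. Ccr2 was 8.59 there, above all cTreg arrays. The summed signal of the 20 genes on KO eTreg 1 (13.22) was also above that of all cTreg arrays (at most 13.11). Signals were summed before the log was taken, so bright genes weigh most. Axl, 1 of the 20, was 10.58 on KO eTreg 1 and at most 9.79 on the cTreg arrays. The mean log2 signal over the 20 genes was 8.57 on KO eTreg 1 and at most 8.41 on the cTreg arrays. The part of macrophage RNA in the Ccr2 signal was not tested.

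**Figure D2:**
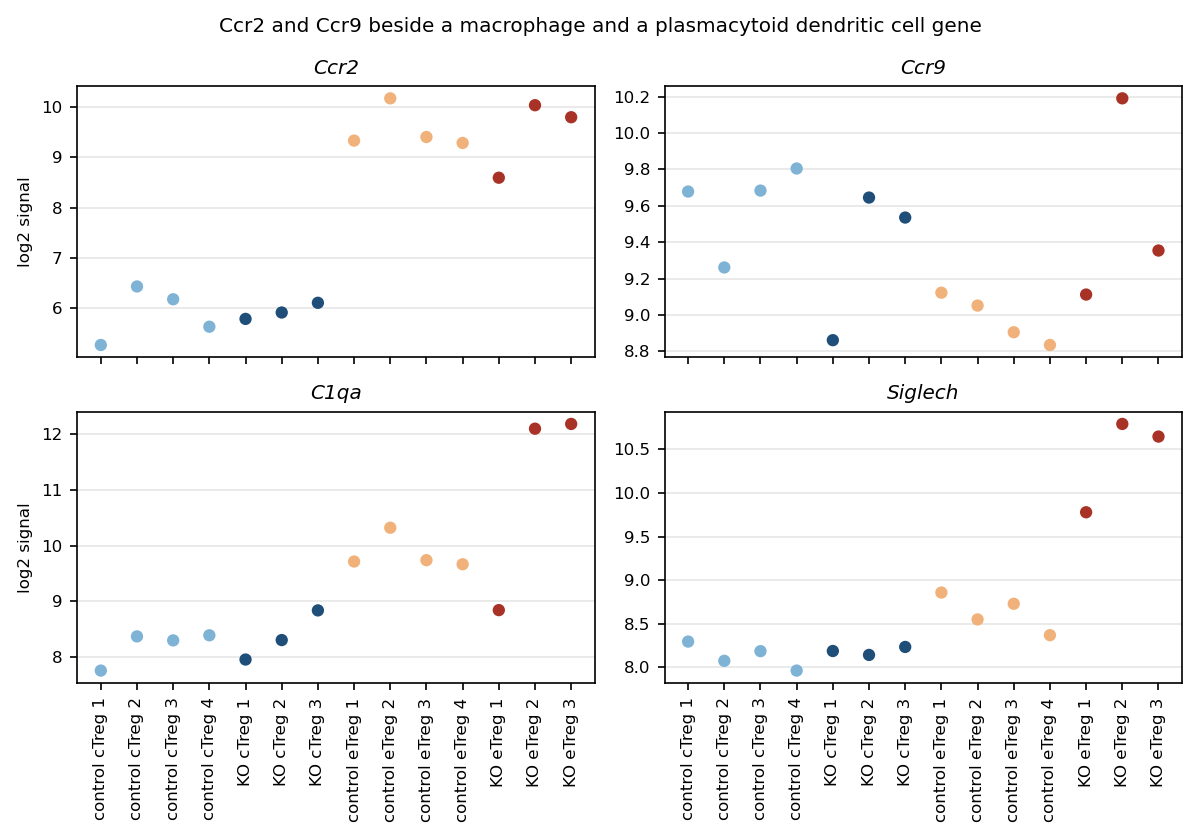
Log2 signal of Ccr2 and Ccr9 beside C1qa (macrophages) and Siglech (plasmacytoid dendritic cells) on the 14 arrays, with an axis of its own range for each gene. C1qa is above 12 on KO eTreg 2 and 3, where Ccr2 is 10.04 and 9.80, and Siglech is 9.78 to 10.79 on the 3 KO eTreg arrays.

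Ccr4 followed with a rise of similar size in both genotypes. On the control cTreg arrays it was 7.35, 7.84, 8.53 and 8.29, and on the control eTreg arrays 10.80, 11.13, 11.32 and 10.94. The KO cTreg arrays had 7.74, 8.09 and 7.81 and the KO eTreg arrays 10.57, 11.02 and 11.33. The gap between subsets was wider than the spread within any group. The change was 3.04 ± 0.22 (8.25-fold, limma adjusted P = 1.5e-06) in controls and 3.10 ± 0.25 (8.55-fold, 1.17e-05) in arrays labelled KO. Unlike Ccr2, Ccr4 was above the background median on all 14 arrays, although all 7 cTreg values lay below the 90th percentile of the background probe sets.

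Ccr8 rose less. Its signal was 8.45, 8.49, 8.95 and 8.95 in control cTregs and 10.44, 10.94, 10.68 and 10.70 in control eTregs. Under the KO label, cTregs had 8.46, 9.13 and 8.80 and eTregs 10.01, 10.79 and 11.38, where KO eTreg 3 was the highest and KO eTreg 1 the lowest of all eTreg arrays. The change was 1.98 ± 0.23 (3.94-fold, limma adjusted P = 1.04e-04) in controls and 1.93 ± 0.27 (3.81-fold, 9.30e-04) in arrays labelled KO. It was 1.21 among the latter once KO eTreg 2 and 3 were left out, with an adjusted P of 0.0798. All 7 cTreg values of Ccr8 lay below the 90th percentile of the background probe sets.

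Ccr6 binds Ccl20 and is known from T cells of mucosal surfaces and from Th17 cells. Its signal was 7.85, 9.18, 8.86 and 9.83 in control cTregs and 11.16, 11.90, 11.57 and 11.65 in control eTregs. It was 9.58, 9.97 and 9.45 in cTregs labelled KO and 11.48, 12.20 and 11.94 in eTregs labelled KO. The control cTreg values were the most scattered (SD 0.82), and no group of eTregs overlapped them. At or below the 90th percentile of the background probe sets were 3 of 4 control cTreg values and 0 of 3 of cTregs labelled KO. The change was 2.64 ± 0.30 (6.23-fold, limma adjusted P = 8.72e-05) in controls and 2.20 ± 0.35 (4.61-fold, 0.00272) in arrays labelled KO. Leaving out KO eTreg 2 and 3, the second value was 1.81 with an adjusted P of 0.195.

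Cxcr3 binds the interferon-induced chemokines Cxcl9 and Cxcl10 and is a receptor of type 1 inflammation. It was 10.32, 9.95, 10.07 and 10.03 in control cTregs and 10.58, 10.70, 10.74 and 10.67 in control eTregs. The arrays labelled KO had 9.86, 9.79 and 9.92 in cTregs and 10.40, 10.61 and 10.83 in eTregs. The steps were small but without overlap. The change was 0.58 ± 0.11 (1.5-fold, limma adjusted P = 0.00487) in controls and 0.76 ± 0.13 (1.69-fold, 0.00348) in arrays labelled KO. The second change missed the threshold when only those arrays were fitted (adjusted P = 0.0671) or when KO eTreg 2 and 3 were left out (0.54, adjusted P = 0.282).

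The receptors of lymphoid organs did not move as one group. Ccr7, which binds Ccl19 and Ccl21, had the smallest spread. Its signal was 12.47, 12.43, 12.36 and 12.33 in control cTregs and 12.27, 12.16, 12.06 and 12.13 in control eTregs. Under the KO label, cTregs had 12.54, 12.30 and 12.47 and eTregs 12.34, 12.09 and 11.97. Control eTregs were below control cTregs without overlap, and the KO groups overlapped through KO eTreg 1. The difference was -0.24 ± 0.10 (limma adjusted P = 0.295) in controls and -0.30 ± 0.12 (0.234) in arrays labelled KO, neither past the threshold.

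Cxcr5 binds Cxcl13 and brings lymphocytes into B cell follicles. It was 8.40, 9.82, 9.69 and 10.01 in control cTregs and 10.56, 11.03, 11.19 and 11.13 in control eTregs. It was 8.67, 9.66 and 9.20 in cTregs labelled KO and 10.52, 11.44 and 11.13 in eTregs labelled KO. All eTreg arrays were above all cTreg arrays, and the lowest value of each group was on its array 1. The change was 1.5 ± 0.31 (2.83-fold, limma adjusted P = 0.00955) in controls and 1.85 ± 0.36 (3.62-fold, 0.00977) in arrays labelled KO. In the latter, 1 array decided the call: leaving out KO cTreg 1 gave an adjusted P of 0.0587 and leaving out KO eTreg 2 one of 0.0584. With both KO eTreg 2 and 3 left out it was 0.407 (change 1.34). Of 8 genes of follicular T cells, 5 rose in control eTregs and 3 in arrays labelled KO, with a median change over the 8 of 0.73 and 0.39. Among the 5 were Pdcd1, by 1.93, and Bcl6, by 0.81. The Bcl6 change in arrays labelled KO was 0.43 (limma adjusted P = 0.370). The study also uses PD-1, the protein of Pdcd1, as a marker of terminal eTregs. Not among the 5 were Tox2 (means of 9.32 in control cTregs and 9.63 in control eTregs) and Ascl2 (7.99 and 8.26).

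Cxcr4 binds Cxcl12 and holds cells in bone marrow. It was 10.86, 11.37, 11.64 and 11.18 in control cTregs and 11.25, 11.73, 11.86 and 11.39 in control eTregs. The arrays labelled KO had 11.16, 11.02 and 10.83 in cTregs and 11.14, 11.19 and 11.00 in eTregs. The subsets overlapped in both genotypes. The difference was 0.29 ± 0.16 (limma adjusted P = 0.510) in controls and 0.11 ± 0.19 (0.862) in arrays labelled KO.

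Ccr9, which binds Ccl25, directs T cells to the small intestine and is also carried by plasmacytoid dendritic cells. It was 9.68, 9.26, 9.68 and 9.80 in control cTregs and 9.12, 9.05, 8.90 and 8.84 in control eTregs. Under the KO label, cTregs had 8.86, 9.64 and 9.54 and eTregs 9.11, 10.19 and 9.35. Control eTregs were below control cTregs on all arrays, while the groups labelled KO overlapped. The difference was -0.63 ± 0.21 (limma adjusted P = 0.149) in controls and 0.20 ± 0.24 (0.779) in arrays labelled KO. At or below the 90th percentile of the background probe sets were 1 of 4 control cTreg and 3 of 4 control eTreg values. Under the KO label they were 2 of 3 in cTregs and 2 of 3 in eTregs. Under 4 alternatives the control difference passed the adjusted threshold, with an adjusted P of 0.00987 when only control arrays were fitted, 0.0432 without KO eTreg 2 and 0.0412 with the replicate number as a fixed block.

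**Figure D3:**
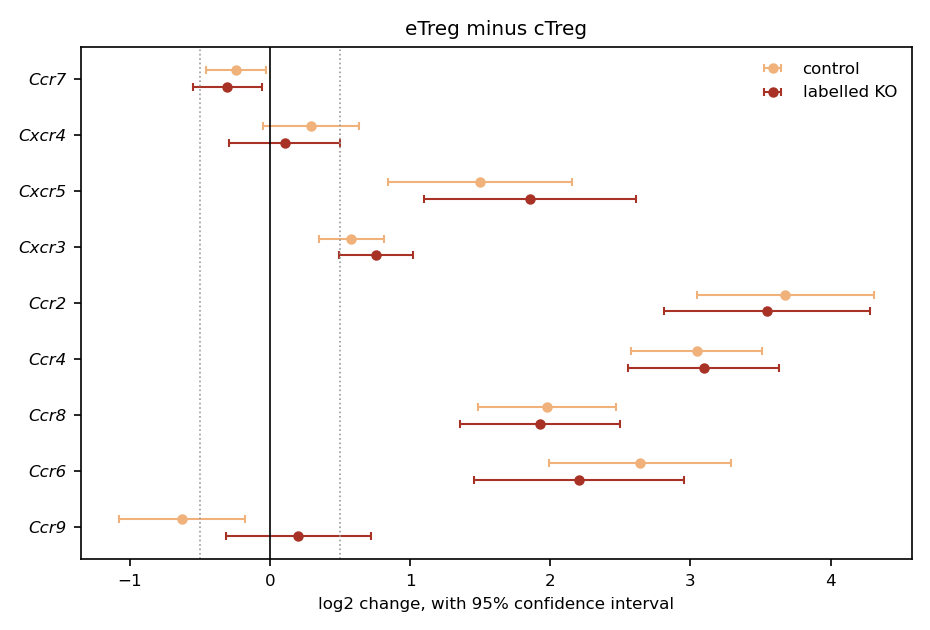
Difference between eTregs and cTregs for the 9 receptors, in log2 units, with 95% confidence intervals from the limma fit, for controls and for arrays labelled KO. Dotted lines mark 0.5 on either side of 0. The 6 receptors Cxcr5, Cxcr3, Ccr2, Ccr4, Ccr8 and Ccr6 have intervals above 0 in both genotypes, and Cxcr4 has intervals that include 0 in both.

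The next comparison asked whether the receptors followed the genotype label within a subset. In eTregs, 0 of 9 receptors passed the adjusted threshold (0.117% of all transcript clusters). The study's methods use this size of change with P below 0.05 either after or before adjustment, and the unadjusted form is called the threshold of the methods here. Ccr9 alone passed it, where 2.72% of all transcript clusters did. For 1 of 9, Cxcr4, the arrays of both genotypes did not overlap (6.85% of all transcript clusters). Both shares of the receptors rest on a single gene.

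Ccr9 was 8.98 ± 0.13 (SD, n = 4) in control eTregs and 9.55 ± 0.57 (n = 3) in eTregs labelled KO, a change of 0.57 ± 0.23 (SE, limma adjusted P = 0.50). KO eTreg 2 had the highest Ccr9 signal of all arrays, and KO eTreg 1 was below control eTreg 1. Of these Ccr9 values, 3 of 4 in controls and 2 of 3 under the KO label were at or below the 90th percentile of the background probe sets. Siglech, a defining gene of plasmacytoid dendritic cells, was 9.78, 10.79 and 10.65 in eTregs labelled KO and 8.37 to 8.86 in control eTregs, a change of 1.78 (limma adjusted P = 4.83e-04). The summed signal of 13 genes of plasmacytoid and classical dendritic cells (log2) was 13.17 to 13.21 in control eTregs and 13.28 to 13.82 in eTregs labelled KO. It was 13.06 to 13.23 in control cTregs and 13.04 to 13.11 in cTregs labelled KO, and 1 of the 13 genes, Siglech, rose by genotype in eTregs at the adjusted threshold. The part of dendritic cells in the Ccr9 signal was not tested. Without KO eTreg 2 or without control eTreg 4, Ccr9 no longer passed the threshold of the methods.

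Cxcr4 was 11.56 ± 0.28 (SD, n = 4) in control eTregs and 11.11 ± 0.098 (n = 3) in eTregs labelled KO, a change of -0.45 ± 0.17 (SE, limma adjusted P = 0.490). The highest array labelled KO (11.19) lay just under the lowest control array (11.25). Without control eTreg 1 the change was -0.55, past the threshold of the methods.

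The other 7 receptors had genotype differences in eTregs of -0.07 (Ccr2) to 0.30 (Ccr6), and their arrays overlapped. For Ccr2 the 95% confidence interval was -0.76 to 0.61, for Ccr4 -0.57 to 0.43, for Ccr8 -0.50 to 0.57 and for Cxcr5 -0.66 to 0.76. Differences of up to these sizes cannot be told from 0 with 3 and 4 arrays. The interval was narrower for Ccr7, -0.25 to 0.21, and for Cxcr3, -0.31 to 0.19. In each of Ccr2, Ccr4, Ccr8, Ccr6, Cxcr3 and Cxcr5, KO eTreg 1 was the lowest array of its group, and it was the highest for Ccr7. That array also had the lowest Cd44 signal of the eTreg arrays (10.60).

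In cTregs, 0 of 9 receptors passed the adjusted threshold (0.045% of all transcript clusters) and Ccr6 alone passed that of the methods (0.576%). Ccr6 was 8.93 ± 0.82 (SD, n = 4) in control cTregs and 9.67 ± 0.27 (n = 3) in cTregs labelled KO, a change of 0.74 ± 0.33 (SE, limma adjusted P = 1). The groups overlapped, since control cTreg 4 (9.83) was above 2 of the 3 arrays labelled KO. Of the Ccr6 values, 3 of 4 in controls and 0 of 3 under the KO label lay at or below the 90th percentile of the background probe sets. Control cTreg 1 (7.85) was far below the rest, and without it the change was 0.38, while without control cTreg 4 it was 1.04. For Cxcr3 alone of the 9 the arrays did not overlap (5.05% of all transcript clusters), and it was 10.09 ± 0.16 in controls and 9.86 ± 0.065 in arrays labelled KO, a difference of -0.24 (limma adjusted P = 1). The other 7 differed by -0.31 (Cxcr5) to 0.09 (Ccr8). Without control cTreg 1, the lowest Cxcr5 value of its group, the Cxcr5 difference was -0.67, past the threshold of the methods.

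**Figure D4:**
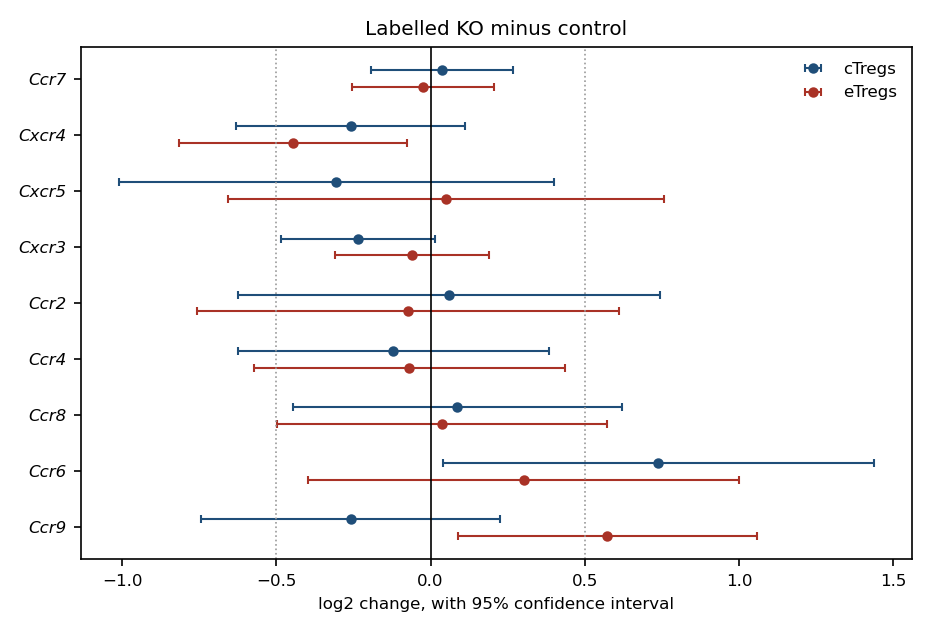
Difference between arrays labelled KO and control arrays for the 9 receptors, in log2 units, with 95% confidence intervals from the limma fit, in cTregs and in eTregs. Dotted lines mark 0.5 on either side of 0. Intervals that exclude 0 are those of Ccr9 and Cxcr4 in eTregs and Ccr6 in cTregs, before adjustment for the number of genes tested.

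Whether the subset difference itself depended on the genotype label was tested as an interaction. At the adjusted threshold, 0 of 9 receptors passed (0% of all transcript clusters), and 1 of 9, Ccr9, passed that of the methods (3.05%). Ccr9 had an interaction of 0.83 ± 0.32 (SE, limma adjusted P = 0.789). Its order of group means was control cTregs (9.61), eTregs labelled KO (9.55), cTregs labelled KO (9.35) and control eTregs (8.98). The first 3 of these did not differ beyond their spread. In each of the 4 groups some Ccr9 values lay at or below the 90th percentile of the background probe sets. For the remaining receptors the interaction lay between -0.44 (Ccr6) and 0.36 (Cxcr5). For Ccr2 its 95% confidence interval was -1.10 to 0.84, and for Ccr4 -0.66 to 0.76. For the 6 receptors higher in eTregs, both eTreg groups were above both cTreg groups, and neighbours within a subset did not differ at the adjusted threshold.

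The rest of the chemokine system was followed through lists of related genes. Of 14 other chemokine receptors, 1 rose in control eTregs at the adjusted threshold, Ccrl2, a receptor that binds chemerin without signalling (0.70, limma adjusted P = 0.0370). Ccrl2 changed by 0.63 in arrays labelled KO (limma adjusted P = 0.138), and all its values lay at or below the 90th percentile of the background probe sets. In arrays labelled KO 1 rose, Ccr3, an eotaxin receptor (2.35, adjusted P = 0.0282, against 1.11 and 0.302 in controls). Ccr3 was 6.40, 9.68 and 8.76 on KO eTreg 1, 2 and 3 and 5.64 to 6.19 in cTregs labelled KO, so that its high values were on the same arrays as those of C1qa. The 14 genes had a median change of 0.16 in controls and of 0.28 under the KO label.

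Of 16 chemokines that bind the 9 receptors, 1 rose in each genotype. Ccl1, a ligand of Ccr8, was 8.17 to 8.26 in control cTregs and 8.80 to 8.91 in control eTregs, a change of 0.65 (limma adjusted P = 0.0344). It changed by 0.48 in arrays labelled KO (limma adjusted P = 0.246). On every array Ccl1 was at or below the 90th percentile of the background probe sets. In arrays labelled KO the riser was Ccl8, by 2.78 (adjusted P = 0.0209). Its signal was 8.76 on KO eTreg 1 and 11.40 and 12.06 on KO eTreg 2 and 3, the arrays high in macrophage genes. By genotype 0 of the 16 ligands and 0 of the 14 receptors passed the adjusted threshold in eTregs or cTregs.

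Genes that relay or end the signal moved little. Of 26 genes of G proteins, their regulators, receptor kinases and arrestins, 2 rose in control eTregs and none in arrays labelled KO. Rgs16, which switches off G proteins, rose by 1.15 (limma adjusted P = 0.00125), and Gng2, a G protein gamma subunit, by 0.66 (0.0215). In arrays labelled KO their changes were 0.73 (adjusted P = 0.0851) and 0.67 (0.0579).

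Other receptors for chemoattractants moved both ways. Of 10, 2 rose and 1 fell in each genotype. S1pr1, the sphingosine 1-phosphate receptor needed to leave lymphoid organs, fell by 0.87 in control eTregs (limma adjusted P = 5.89e-04) and by 0.78 in those labelled KO (0.00807). Gpr15, a receptor for homing to the large intestine, rose by 1.23 (1.79e-05) and 1.65 (1.19e-05). The other riser in controls was Ptger4, a prostaglandin E2 receptor (0.56, adjusted P = 0.0406), with a change of 0.60 in arrays labelled KO (0.0777). In the latter it was Ltb4r1, a leukotriene B4 receptor (1.32, adjusted P = 0.0164), with a change of 0.60 in controls (0.254). Ltb4r1 was 6.75, 8.27 and 7.07 on KO eTreg 1, 2 and 3. All its values lay at or below the 90th percentile of the background probe sets.

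**Figure D5:**
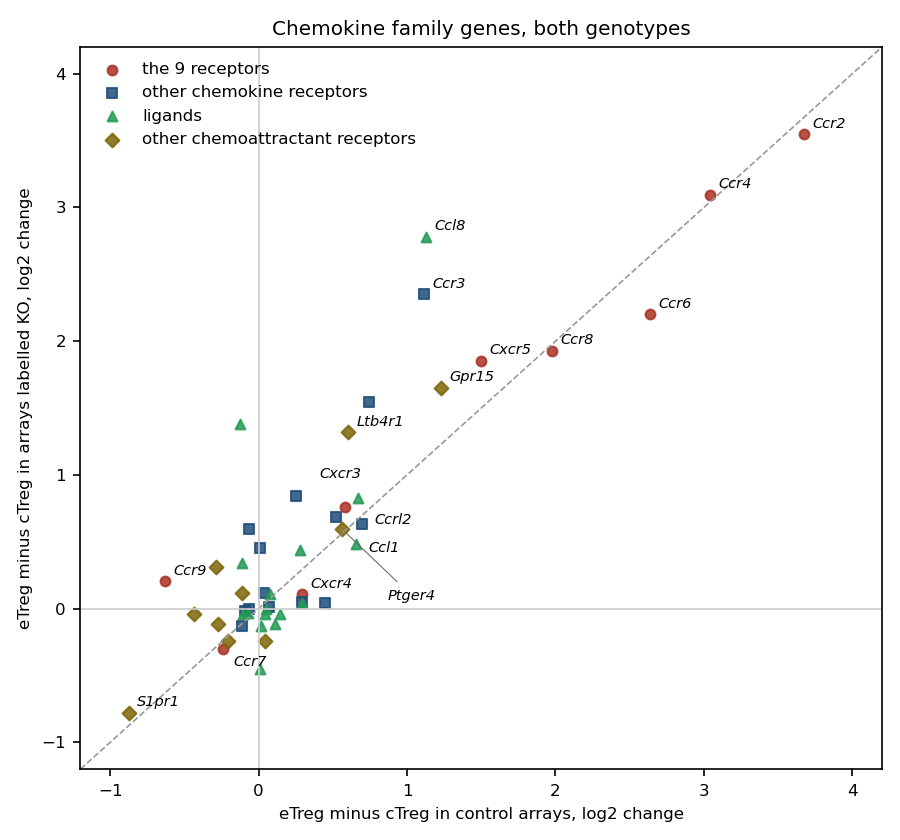
Difference between eTregs and cTregs in controls (horizontal) and in arrays labelled KO (vertical), in log2 units, for the 9 receptors, 14 other chemokine receptors, 16 ligands and 10 other chemoattractant receptors. Receptors of this set and other genes past the adjusted threshold in either genotype are named, and the dashed line marks equal differences. Ccr3 (1.11 in controls, 2.35 in arrays labelled KO) and Ccl8 (1.13 and 2.78) lie far above the line.

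Of 10 transcription factors linked to the receptors, 7 were higher in eTregs in controls and 4 in arrays labelled KO, with 1 lower in each. The lower factor was Klf2, known to maintain S1pr1 and the central state, which fell by 0.87 and 0.75. Tbx21, which encodes the Cxcr3 activator T-bet, rose by 1.18 in controls and 1.41 under the KO label. Rora, a factor of Ccr6-bearing Th17 cells, rose by 1.69 in controls and by 1.77 under the KO label. Prdm1, the gene of Blimp-1, rose by 2.55 and 2.13. Bcl6, Batf and Irf4 rose in controls by 0.81, 0.64 and 0.86, and had changes of 0.43, 0.52 and 0.76 in arrays labelled KO (limma adjusted P = 0.370, 0.050 and 0.0660). None of the 10 passed the adjusted threshold by genotype.

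The genes whose pattern over the 14 arrays was most like that of a receptor were sought for the 5 receptors whose group means spanned 1 or more on the log2 scale, among 20314 transcript clusters with a mean above background. For Ccr2 they were Lamc1 (Pearson r = 0.991), Podnl1 (0.985) and Rora (0.982). For Ccr4 they were Rora (0.988), Tigit (0.979) and Ccr2 (0.977). Ccr8 was nearest to Prdm1 (0.984), Slc39a4 (0.982) and Il18r1 (0.982), Ccr6 to Bhlhe40 (0.971), Cybb (0.963) and Areg (0.962), and Cxcr5 to Arhgef3 (0.968), Bcl2a1d (0.967) and Tiam1 (0.966). The points of each correlation share their arrays and fall into subsets that lie apart, so these values describe the order of genes only.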

How the data were processed

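Tregs of 4 groups were measured on 14 Clariom S mouse arrays. The authors summarised the probes by RMA in Affymetrix Expression Console 1.1. What they deposited are log2 signals, quantile normalised over all arrays. Array scans were not used here, so that step could not be varied. Of 28846 entries, 6640 control probe sets and 3 with a blank symbol were left out. The number of arrays limits the precision. A linear model with 4 group means was fitted to all 22203 transcript clusters without a filter on signal (lmFit and eBayes of limma 3.58.1, R 4.3.3, data.table version 1.17.8, two-sided P, Benjamini-Hochberg adjustment over all of them). The code was tested on simulated data.

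A value was at background when at or below the median of the 23 background control probe sets of its array. Their signal varies with base content, and that of the receptors' probes is not known here. The build behind the identifiers is not given in the sources used here, and only RefSeq promoters (GRCm38.p6) carry coordinates. Symbols of all 9 receptors matched RefSeq. Named beside the receptors are genes of 5 related lists past the adjusted threshold in a contrast, defining markers of other cells, Atg14 and, per receptor, the 3 genes most like it. Cd44 is a sort gene. A gene counted in a list may not be reported here by name. Receptors, lists and tests were chosen with earlier results of these data known. Figures were drawn with matplotlib in Python.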

Additional observations from a re-analysis of the deposited data

Results flagged for a closer look

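Ccr2 on control eTreg 2 (10.17) stood apart from the other 3 control eTreg arrays, which lay between 9.29 and 9.40. Its gap to the nearest of them was 0.867 of the range of the group, above Dixon's critical value at the 95% level for 4 arrays. Of 18 groups of 4 arrays examined in this way it was the only such value, and chance gives about 1 in 20. C1qa, a macrophage gene, was also highest of the control eTreg arrays on that array (10.32), and its part in the Ccr2 value was not tested.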

How the results depend on the processing

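Each receptor had 1 transcript cluster, so the alternative of averaging several could not be run. The 6 receptors higher in control eTregs kept their direction and call under every alternative in which they were tested. Ccr2 was removed by both filters on signal and Ccr9 by that at the 90th percentile of background probe sets, which left 5 called of 8 and of 7 tested. In that comparison Ccr9 passed the adjusted threshold with array weights (-0.66, adjusted P = 0.0142), with control arrays alone, without KO eTreg 2 and with a fixed replicate block (0.0412). In arrays labelled KO, 6 receptors were called in the fit of all arrays and 2 without KO eTreg 2 and KO eTreg 3 together, an alternative chosen after seeing the data that leaves 1 array in that group, assumed to vary like the others. There Cxcr5 was 1.34 (adjusted P = 0.407) and Ccr9 -0.24. Over single arrays left out, Ccr9 ranged from -0.11 to 0.42 and Cxcr5 from 1.60 to 2.11.

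By genotype in eTregs, 1 receptor passed the threshold of the methods in the main analysis, 0 with the filter at that percentile, 2 with array weights, 0 to 2 with single arrays left out, and 2 without KO eTreg 2 and 3 (Ccr2 -0.96 and Ccr8 -0.68). In cTregs 1 passed (Ccr6), 0 with a trended and robust variance, and 0 to 1 with single arrays left out, where without control cTreg 1 it was Cxcr5 (-0.67) and not Ccr6. For the interaction 1 passed, 0 with that filter, 0 to 1 with single arrays left out, and 2 without KO eTreg 2 and 3. With array weights the sign turned in eTregs for Ccr2 (0.19), Ccr4 (0.052) and Cxcr3 (0.016), in cTregs for Ccr2 (-0.015) and in the interaction for Ccr2 (0.21) and Ccr8 (0.17). Without KO eTreg 2 and 3 it turned in eTregs for Ccr6 (-0.095), Ccr7 (0.18), Ccr8 (-0.68) and Cxcr5 (-0.46), and in the interaction for Ccr4 (-0.36), Ccr7 (0.15), Cxcr3 (-0.038) and Cxcr5 (-0.16). With single arrays left out, the ranges that crossed 0 were, in eTregs, Ccr2 -0.35 to 0.37, Ccr4 -0.25 to 0.13, Ccr7 -0.13 to 0.058, Ccr8 -0.29 to 0.39, Cxcr3 -0.17 to 0.049 and Cxcr5 -0.15 to 0.31. In cTregs they were Ccr2 -0.14 to 0.24, Ccr4 -0.34 to 0.055, Ccr7 -0.014 to 0.11 and Ccr8 -0.082 to 0.25. In the interaction they were Ccr2 -0.41 to 0.31, Ccr4 -0.13 to 0.27, Ccr7 -0.16 to 0.021 and Ccr8 -0.37 to 0.31. None of these passed a threshold in the main analysis, and the cause was not tested.

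Replicate numbers were not taken as pairs, since the labels do not tie numbers to chimeras. Deviations of same-numbered cTreg and eTreg arrays correlated at 0.04 to 0.30. Of 7 cTreg arrays, 6 correlated best with the eTreg array of their own number. Same-numbered control and KO arrays of a subset, which come from different chimeras, correlated at 0.01 to 0.29. These correlations therefore cannot tell a shared chimera from another link between arrays of the same number. With the number as a random replicate block (correlation 0.238) all counts of receptors stayed as they were. With a fixed replicate block the count in control eTregs was 7 in place of 6, Ccr2 in cTregs was -0.023, and Cxcr4 (-0.50) took the place of Ccr9 in eTregs at the threshold of the methods. Subtracting array medians or 75th percentiles moved the median of all changes by at most 0.05 and left all counts of receptors as they were. At the median of the background probe sets 4 of the 126 values lay at background, and at their 90th percentile 40.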

Other observations

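Over the other cell type lists, the 10 B cell genes had summed signals (log2) of 11.68 to 12.19 over all 14 arrays, and the 8 neutrophil genes of 10.10 to 10.42, with single values between 5.54 and 8.77. The 9 genes of CD8 T cells and NK cells had 11.77 to 12.02 in control cTregs and 11.73 to 12.19 in cTregs labelled KO. They had 11.47 to 11.79 in control eTregs and 11.99 to 12.37 in eTregs labelled KO, and 0 of the 9 passed the adjusted threshold by genotype in eTregs. The 6 Treg genes had 15.00 to 15.12 in control eTregs and 14.99 to 15.03 in eTregs labelled KO. Of the follicular genes, Il21 rose by genotype in eTregs, from 7.99 to 8.49 on the control arrays to 8.99 to 9.15 on those labelled KO (0.80, limma adjusted P = 0.0354). These Il21 values all lay at or below the 90th percentile of the background probe sets. Cxcr5 in the same arrays differed by 0.05. Ccl25, the ligand of Ccr9, was 10.05 to 10.32 in control eTregs and 9.38 to 9.87 in eTregs labelled KO, a difference of -0.52 (limma adjusted P = 0.196). Ccl25 was named after its values were seen.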
